A study of Mus musculus with 12 samples.

Results

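To describe the conventional type 1 dendritic cells (cDC1) of the neonatal mouse liver with and without phlebotomy-induced anemia (PIA), cells carrying the XCR1 and CLEC9A transcripts were selected from single-cell RNA sequencing of 12 whole livers. Of 207537 deposited barcodes, 202557 held between 500 and 50000 unique molecular identifiers (UMIs, each marking 1 captured mRNA molecule) with at most 20% of mitochondrial origin, and 1686 of these 202557 cells were cDC1. A cell was taken as a cDC1 when it held at least 2 UMIs of Xcr1 and Clec9a together and at least 3 of the MHC class II genes H2-Ab1, H2-Aa and Cd74. It also had to hold 0 UMIs of the B cell genes Cd79a and Ms4a1, the T cell gene Cd3e, the plasmacytoid gene Siglech and the endothelial gene Stab2, and at most 1 UMI of the macrophage genes C1qa, C1qb and C1qc. The 892 control and 794 anemic cDC1 came from 6 control and 6 anemic mice, with 127 to 185 cells per control mouse and 87 to 211 per anemic mouse.

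All 12 animals were C57BL/6 pups (C57BL6/J genotype in the sample records) of both sexes, drawn at random from shared litters, nursed by their dams and killed on postnatal day 11. Anemic mice lost 20 µL of blood per gram of body weight from the facial vein on postnatal days 2, 4, 6, 8 and 10. Control mice were handled alike and received a daily needle stick without blood removal. Y-linked transcripts were above Xist in 2 of 6 control and 4 of 6 anemic mice. Each liver was dissociated enzymatically and run as 1 library on the 10X Genomics droplet platform, with no sorting step stated and 1 batch date for all libraries.

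cDC1 are the dendritic cells that take up dying cells and present their antigens on MHC class I to CD8 T cells, a process called cross-presentation. They arise from bone marrow or fetal liver progenitors under the growth factor FLT3 ligand and depend on the transcription factors IRF8, BATF3 and ID2. XCR1 is the receptor for a chemokine released by activated CD8 T cells and NK cells, CLEC9A binds actin exposed by dead cells, and IL-12 made by cDC1 is a signal for interferon gamma production. On maturation, dendritic cells raise co-stimulatory molecules, CCR7 and chemokines such as CCL22, and leave the tissue for lymph nodes.

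The genes of the gate are given as levels only, because they chose the cells. Per mouse, Xcr1 ranged from 272 to 393 CPM, the UMIs of a gene per 1000000 UMIs of the summed cDC1, and Clec9a from 345 to 515 CPM. Both genes were at 0 in the cDC2 and plasmacytoid dendritic cells (pDC) of every mouse, whose gates required their absence, and they lay between 0 and 4.07 CPM in B cells. Of the members, 331 sat just inside the first limit with 2 UMIs of Xcr1 and Clec9a and 1061 held 4 or more, while 546 further cells met every other condition with 1 UMI. A total of 4 members held 3 class II UMIs and 6 cells were left out with 2, and 281 members held 1 C1q UMI while 56 cells were left out with 2. As a background for the first limit, 83 of 27499 B cells (0.302%) held any UMI of Xcr1 or Clec9a and 37 (0.135%) held at least 2. The median depth of those B cells was 1538 to 2121 UMIs per library against 6465.5 UMIs per cDC1 (range 550 to 21401).

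The label was checked on markers outside the gate. Flt3, the third marker given for the cells and the receptor for FLT3 ligand, was not part of the gate. It stood at 193 ± 35.4 CPM (SD, n = 12 mice) in cDC1, 124 CPM in cDC2, 146 CPM in pDC and 6.79 CPM in B cells. Flt3 was higher in cDC1 than in cDC2 in 11 of 12 mice (log2 fold change 0.79, SE 0.14, adjusted p = 3.8e-05, edgeR quasi-likelihood test with mouse as a block and Benjamini-Hochberg adjustment over all genes tested). The cDC2 used for comparison were 311 class II-positive cells with UMIs of Cd209a or Clec10a, and the pDC were 2571 cells with UMIs of Siglech or Ccr9. Of 26 cDC1 markers measured, 20 were higher in cDC1 than in cDC2, 2 did not pass and 4 were not tested. Across all genes, 2379 of 7680 passed (31.0%), 1300 of them higher in cDC1 (16.9%) and 1079 lower (14.0%), a split that became 968 and 1429 without TMM factors, a scaling of library sizes.

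The transcription factors of the lineage differed between cDC1 and cDC2. Irf8, required for cDC1 and also high in pDC, averaged 600 ± 54.1 CPM in cDC1 and 46.0 ± 35.6 CPM in cDC2 (n = 12 each). Its partner Batf3 averaged 135 against 63.5 CPM, and Id2, which restrains E-protein factors and so keeps the pDC program off, averaged 755 against 216 CPM. Each of the 3 was higher in cDC1 than in cDC2 in 12 of 12 mice. In pDC, Irf8 was at 762 ± 130 CPM, above cDC1 in 11 of 12 mice, while Batf3 (1.33 CPM) and Id2 (35.4 CPM) were below cDC1 in all 12. Zbtb46, a factor shared by both conventional types, was at 103 ± 17.5 and 135 ± 58.2 CPM and did not pass (adjusted p = 0.36, edgeR), and Itgax, the integrin CD11c, was at 168 and 148 CPM (adjusted p = 0.094, edgeR). Irf4, the factor of the cDC2 branch, was lower in cDC1, at 5.04 against 45.2 CPM, and Sirpa, the cDC2 surface receptor, at 8.01 against 205 CPM. Neither marks cDC2 alone, since pDC held 57.1 CPM of Irf4 and 241 CPM of Sirpa.

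Genes of uptake and cross-presentation were also unequal. Wdfy4, needed for cross-presentation of cell-associated antigen, was at 995 ± 113 CPM in cDC1 and 219 ± 73.3 CPM in cDC2. Rab43, a small GTPase of the same pathway, differed by 1.54 on the log2 scale (SE 0.12), and Cd36, a scavenger receptor for dead cells, by 4.30 (SE 0.26). Cybb, the NADPH oxidase subunit of phagosomes, went the other way, at 20.1 ± 25.9 CPM in cDC1 and 446 ± 55.3 CPM in cDC2, lower in all 12 mice. Of 12 cross-presentation and uptake genes tested, 6 were higher in cDC1 and 2 lower. Over all genes tested, 16.9% were higher and 14.0% lower, so the 2 lower genes were near that share. Of 17 MHC class I genes, 10 were higher and 0 lower, among them the peptide transporter subunits Tap1 (log2 1.06) and Tap2 (1.18) and the immunoproteasome subunit Psmb9 (1.68). The class I chain H2-K1 (425 against 538 CPM) and B2m (934 against 1016 CPM) did not pass. Of 11 class II genes outside the gate, 1 was higher (H2-Ob, 1.33) and 5 were lower, including the proteases Ctss (-1.37) and Lgmn (-2.07).

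Single genes of sensors and signals differed between the types in both directions. Tlr3, the sensor of double-stranded RNA, was at 156 ± 26.8 CPM in cDC1 and 8.14 ± 7.26 CPM in cDC2, and the profilin sensors Tlr11 (3.59) and Tlr12 (3.67) were also higher in cDC1 on the log2 scale, while the inflammasome gene Nlrp3 was lower (-1.61). Il12b, the shared subunit of IL-12 and IL-23, was at 92.7 ± 37.6 CPM against 7.77 ± 17.2 CPM and was higher in cDC1 in 12 of 12 mice. Il1b was at 147 ± 39.1 against 743 ± 265 CPM and was lower in 12 of 12. Of 21 receptor genes tested, 4 were higher, including Kit (2.09) and the chemokine receptor Cxcr3 (4.03), and 9 were lower, including the macrophage growth factor receptor Csf1r (-1.93). Of 19 interferon response genes, 3 were higher and 11 lower. Over all genes tested, 16.9% were higher and 14.0% lower in cDC1. The counts of higher genes in the receptor and interferon lists were near that share.

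Among genes of at least 100 CPM in the higher type, the largest difference was that of P3h2, a collagen prolyl hydroxylase, at 360 ± 122 CPM in cDC1 and 1.32 ± 3.14 CPM in cDC2. Itgae, the integrin CD103, followed at 151 ± 33.2 against 2.25 ± 4.13 CPM, and then Ccser1, Asap2, 4931406G06Rik and Pianp, with log2 differences of 5.16 to 6.17. The largest differences the other way were those of Mgl2, a galactose-binding lectin (0.582 against 176 CPM), Clec4b1, the transcription factor Zeb2 (45.4 against 1597 CPM), S100a4, the chemokine Ccl9 and the kinase Fgr. The first 6 genes were higher in cDC1 in 12 of 12 mice and the last 6 in 0 of 12. The plot of marker levels shows the contrast over a chosen part of the dendritic lists.

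**Figure D1:**
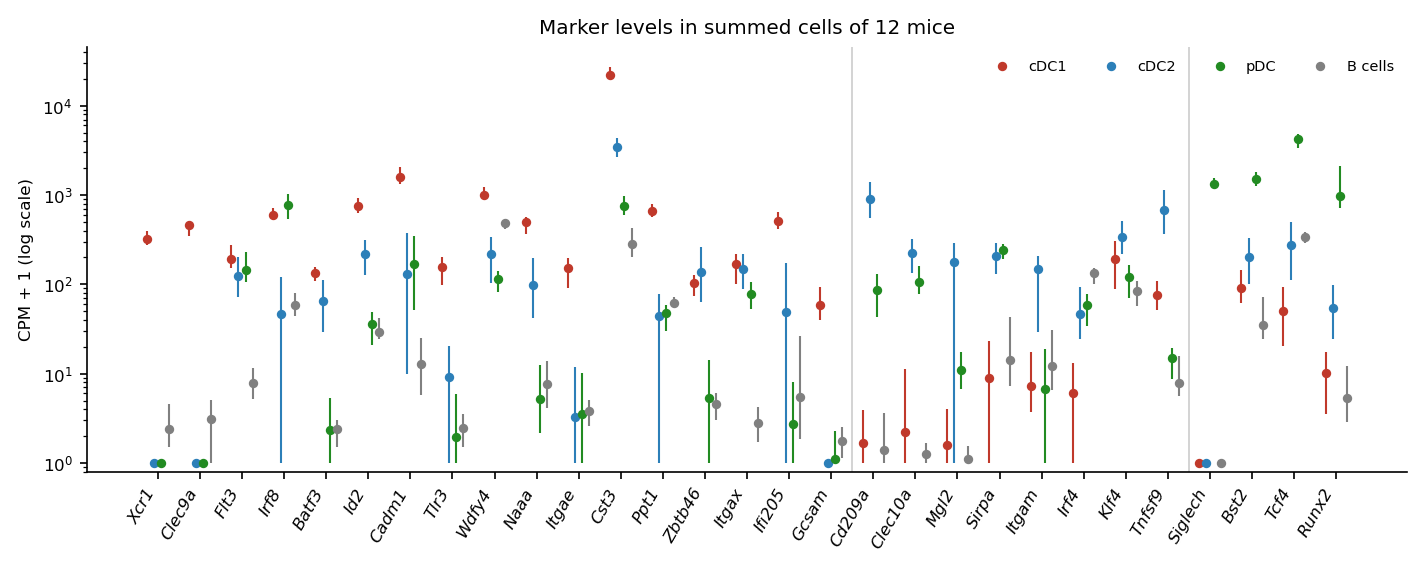
Levels of chosen cDC1 markers (left), cDC2 markers (middle) and pDC markers (right) in the summed cells of each mouse, as CPM + 1 on a log axis. Cells are cDC1 (red), cDC2 (blue), pDC (green) and B cells (grey). Only a part of each marker list is drawn. Points are means over 12 mice and lines run from the lowest to the highest mouse. Irf8 stands near 600 CPM in cDC1 and 46.0 CPM in cDC2, Sirpa at 8.01 and 205 CPM.

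Within the cDC1, 1374 cells held an Xcr1 UMI and 312 did not, and the second set was shallower (median 5507.5 against 6724 UMIs). These values are descriptions, since the gate used Xcr1. In cells with Xcr1, Itgae was higher in 12 of 12 mice (162 against 97.7 CPM) and so were Naaa, an enzyme that degrades lipid amides (511 against 397 CPM), and the lysosomal enzyme Ppt1 (682 against 512 CPM). Plac8, a small cysteine-rich protein of myeloid progenitors and monocytes, and Il1r2, the decoy receptor for IL-1, were lower in cells with Xcr1 in 12 of 12 mice, at 258 against 488 CPM and 27.6 against 43.9 CPM. A total of 95 cDC1 held a UMI of Ccr7, the receptor for migration to lymph nodes, 48 of 892 control and 47 of 794 anemic cells. Fscn1, an actin-bundling protein of mature dendritic cells, was found in 16 of these 95 cells, 8 control and 8 anemic. In the sum of the 95 cells Fscn1 stood at 468 CPM against 3.03 CPM in the other 1591, Ccl22 at 411 against 22.5, Il12b at 777 against 50.1, Cd274, the ligand PD-L1, at 565 against 54.9 and Relb at 415 against 81.5 CPM. Xcr1 and Naaa were lower there, at 220 against 325 and 274 against 505 CPM.

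The share of cDC1 among kept cells was compared between the groups. The control shares were 0.810% at the lowest, 0.935% at the median and 1.04% at the highest, and the anemic shares 0.491%, 0.733% and 1.00%. Of the 6 anemic mice, 4 lay below every control, while anemic mice 3 and 4 lay inside the control range, so the groups overlapped. The means were 0.928% ± 0.0778 (SD, n = 6) and 0.735% ± 0.183 (n = 6), a difference of -0.193 percentage points that did not pass (exact two-sided Mann-Whitney p = 0.0649, Benjamini-Hochberg adjusted p = 0.36 over 6 measures). The smallest p that 6 against 6 mice can give is 0.00216. Exact 95% binomial intervals, which cover counting error only, ran from 0.393% to 0.605% for the lowest anemic mouse and from 0.894% to 1.20% for the highest control.

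The difference varied with the cells counted beside the cDC1 and with the gate. Before its other conditions, 1387 control and 1387 anemic kept cells held at least 2 UMIs of Xcr1 and Clec9a. Of these, 128 and 210 held under 3 class II UMIs, 285 and 348 over 1 C1q UMI, and 265 and 347 held Stab2. Siglech was found in 28 and 49, and Cd79a, Ms4a1 or Cd3e in 113 and 112. A cell could fail more than 1 condition, and the part of these losses in the lower share was not tested. Globin took 0.438% to 4.25% of the UMIs of kept cells in control and 3.51% to 14.3% in anemic mice. Barcodes of at least 10% globin UMIs were then left out of the denominator and of the cDC1 (14 control and 23 anemic cDC1). The shares were 0.992% ± 0.0956 and 0.934% ± 0.239 (exact Mann-Whitney p = 0.589, n = 6 each). Among cells with a UMI of the leukocyte gene Ptprc they were 1.91% ± 0.139 and 1.78% ± 0.476 (exact Mann-Whitney p = 0.699). Under a strict gate that also asked for 0 UMIs of 15 genes of other cell types, the difference was -0.261 percentage points, with every anemic mouse below every control (exact p = 0.00216, adjusted p = 0.013, n = 6 each). Those 15 genes include the neutrophil genes S100a8 and S100a9 and the B cell gene Cd79b, and their part in that difference was not tested. The gate kept 70.7% ± 3.78 of the control and 55.2% ± 11.9 of the anemic cDC1.

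Relative to cDC1, cDC2 and pDC together, the cDC1 share was 37.3% ± 3.83 for controls and 36.0% ± 6.70 for anemic animals (exact p = 0.589, n = 6 each). The cDC2 share of kept cells was 0.150% ± 0.0312 and 0.160% ± 0.0320 (exact p = 0.31, n = 6 each) and the pDC share 1.42% ± 0.164 and 1.15% ± 0.282 (exact p = 0.18, n = 6 each). A cDC1 was counted as cycling when it held at least 2 UMIs of 15 cell cycle genes after thinning to 1500 UMIs, which 1661 of the 1686 cells allowed. By that count 12.2% ± 2.96 of control and 15.0% ± 3.84 of anemic cDC1 were cycling (exact p = 0.24, n = 6 each). Unthinned, the shares were 20.4% ± 3.03 and 28.5% ± 6.75 (exact p = 0.026, adjusted p = 0.156 over 6 measures, n = 6 each). The median depth per cell was 6239 ± 596 UMIs for control cDC1 and 6716 ± 486 UMIs for anemic cDC1 (exact p = 0.24, n = 6 each). Anemic mouse 3 had the highest cDC1 share of dendritic cells (48.3%) and the most cDC1 (211).

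**Figure D2:**
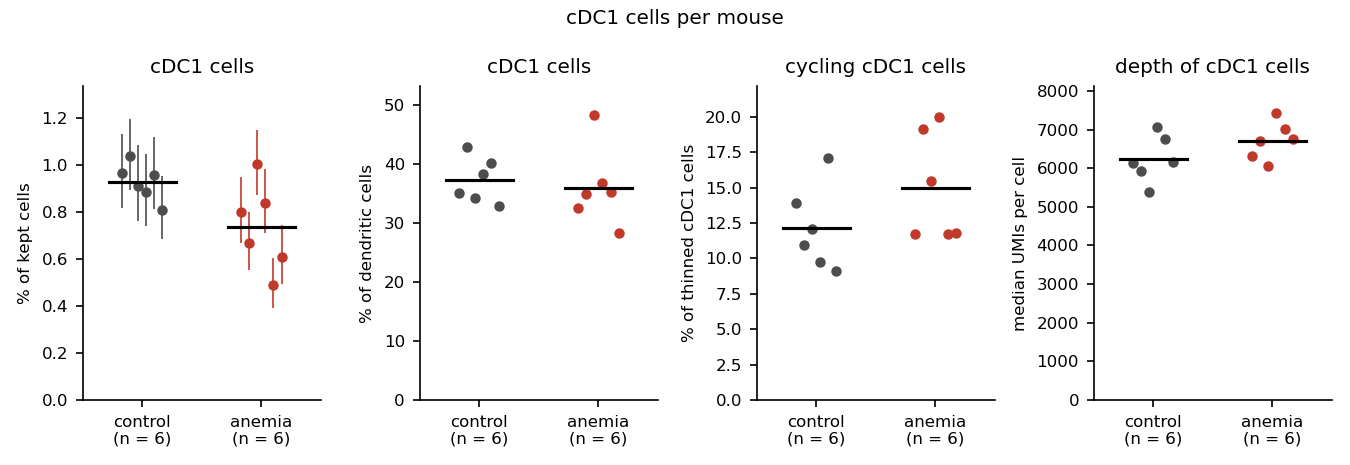
Per mouse, the share of cDC1 among kept cells (%), their share among cDC1, cDC2 and pDC together (%), the share of cycling cDC1 after thinning (%) and the median UMIs per cDC1, for 6 control (grey) and 6 anemic (red) mice. Black lines are group means and the error bars in the first panel are exact 95% binomial intervals of counting error. In the first panel 4 anemic mice lie below all controls.

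Gene expression in cDC1 was then compared between anemic and control mice on UMIs summed per mouse, which came to 670817 to 1388673 per mouse. A sum cannot separate fewer cells that carry a transcript from less of it per cell. Of 8959 genes tested, 14 passed at an adjusted p under 0.05 (0.156%), 11 lower in anemia (0.123%) and 3 higher (0.0335%). At an unadjusted p under 0.05, 947 genes passed (10.6%), and 66 genes had no overlap between the groups (0.737%, 0.357% higher and 0.38% lower). Mice are the replicates, and the p-values weigh the difference between the groups against the spread between mice within them. The fold changes below carry a scaling of library sizes (TMM), while CPM do not. In this comparison adjusted p-values are those of edgeR's quasi-likelihood test. The count of 14 moved with the fit, to 63 with DESeq2, 60 with the replicate number as a block, 121 with no filter on low counts and 5 under the strict gate, and to between 8 and 39 with 1 mouse left out (8 without control 4 or 6, 39 without anemic mouse 4). The first 3 of these fits held all 14 genes and the strict gate 4 of them. With Y-linked expression as a covariate 15 genes passed, 11 of them among the 14.

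The gene with the smallest p was Lmna, which encodes the nuclear lamins A and C (GRCm38 chromosome 3, 88480147 to 88509956, minus strand). The lowest, median and highest control values were 155, 165 and 175 CPM and the anemic values 90.7, 101 and 107 CPM. The spread within either group was small and the groups lay far apart. Lmna fell by 0.75 on the log2 scale (SE 0.09, adjusted p = 0.0017), in 6 of 6 anemic mice, and passed under all 24 alternative settings. In cDC2 it stood at 124 and 71.5 CPM, and in B cells at 28.2 ± 8.11 and 23.7 ± 5.28 CPM.

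Genes that distinguish cDC1 from cDC2 were among those that fell. Pianp, which encodes a ligand of the inhibitory receptor PILR-alpha, ran from 134 to 169 CPM with a median of 149 in control and from 71.9 to 103 with a median of 95.5 in anemic mice. It fell by 0.76 (SE 0.11, adjusted p = 0.0074). Mab21l3 ran from 36.8 to 70.0 CPM (median 61.0) in control and from 14.7 to 31.8 CPM (median 24.4) in anemic mice and fell by 1.26 (SE 0.19, adjusted p = 0.0074). Cyp8b1, known as the sterol 12-alpha-hydroxylase of bile acid synthesis in hepatocytes, ran from 39.6 to 65.2 CPM (median 48.8) and from 22.1 to 29.5 CPM (median 27.8), and fell by 0.92 (SE 0.15, adjusted p = 0.0096). None of these 3 overlapped between the groups. Under the strict gate none of the 3 passed (adjusted p = 0.128, 0.055 and 0.112), and with a gate of at least 3 UMIs of Xcr1 and Clec9a Mab21l3 did not pass (0.076). Over the 24 alternatives, those included, the log2 fold change ran from -0.80 to -0.61 for Pianp, from -1.37 to -1.16 for Mab21l3 and from -0.98 to -0.82 for Cyp8b1. In B cells, Pianp, Mab21l3 and Cyp8b1 were at 0.50, 0.34 and 1.67 CPM in control mice. The part of hepatocyte transcripts in the falls of these 3 genes was not tested. Of the 10 genes that fell in anemia and could be tested between the types, 6 were higher in cDC1 (Lmna, Pianp, Mab21l3, Cyp8b1, Ccl22 and Bcl2a1a). A further 3 were lower (4930523C07Rik, Spred1 and Nfkb1), beside 16.9% and 14.0% over all genes tested. The genes that fell were called on cDC1 sums, where genes high in cDC1 have more UMIs. That background is not matched for level in cDC1, so these counts are a description only.

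Nfkb1 and the A1 genes Bcl2a1b and Bcl2a1a also fell. Nfkb1, which encodes the p105 precursor of the p50 subunit, ran from 503 to 782 CPM (median 646) in control and from 358 to 550 (median 430) in anemic mice. Its groups overlapped by 1 anemic mouse, and it fell by 0.62 (SE 0.12, adjusted p = 0.043). That pass was lost without any 1 of 9 mice (control 1, 2, 3, 4 or 6, or anemic mouse 1, 3, 5 or 6, adjusted p = 0.056 to 0.123), without TMM scaling (0.068), with Y-linked expression as a covariate (0.079) and under the strict gate (0.091). Bcl2a1b and Bcl2a1a, which encode the anti-apoptotic protein A1, are members of 1 family of copied genes. Of the 311 90-base words at the transcript ends of each, 84 of Bcl2a1a also occur in Bcl2a1d, and 106 of Bcl2a1b occur in Bcl2a1d and 66 in Gm29094, so the counts of both are uncertain against these genes, while the pair shared 1 word. Bcl2a1d, given for that overlap, was at 405 ± 57.0 and 281 ± 61.2 CPM and did not pass (adjusted p = 0.11). Bcl2a1b went from 385 to 663 CPM (median 517) down to 256 to 366 (median 308), a fall of 0.84 (SE 0.13, adjusted p = 0.0091), and Bcl2a1a from 222 to 322 (median 278) down to 143 to 219 (median 164), a fall of 0.69 (SE 0.13, adjusted p = 0.043). Bcl2a1a lost its pass without any 1 of 8 mice (control 3, 4, 5 or 6, or anemic mouse 1, 2, 3 or 5, adjusted p = 0.056 to 0.123), and also with limma (0.053), without TMM scaling (0.066), with Y-linked expression as a covariate (0.097) and under the strict gate (0.144). Of 9 survival genes on the list, which left out the A1 copies, 0 passed. Bcl2l1, which encodes BCL-XL and was picked after its value was seen, was at 85.5 ± 15.9 and 62.9 ± 13.7 CPM (adjusted p = 0.24).

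Ccl22, the chemokine that draws CCR4-bearing regulatory T cells (chromosome 8, 94745590 to 94751699, plus strand), ran from 47.7 to 81.7 CPM with a median of 65.8 in control mice and from 17.7 to 47.7 with a median of 26.8 in anemic mice. The highest anemic mouse lay just under the lowest control. Ccl22 fell by 1.21 (SE 0.21, adjusted p = 0.017), and the fall did not pass without control 4 (adjusted p = 0.053), without anemic mouse 3 (0.055), with a gate of at least 3 UMIs (0.205) or under the strict gate (0.278). Among cDC1 without a Ccr7 UMI it stood at 27.0 ± 6.40 and 17.0 ± 5.40 CPM, with 3 of 6 anemic mice below all controls. Il12b, chosen after its values were seen, was at 120 ± 29.4 and 65.0 ± 20.4 CPM and did not pass (log2 -0.92, adjusted p = 0.068), though it did under 5 of 24 alternatives. Among cDC1 without a Ccr7 UMI, Il12b was at 57.7 ± 22.8 and 37.5 ± 23.1 CPM, with 1 anemic mouse above and 1 below all controls.

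The other genes that fell were Spred1, an inhibitor of the Ras to ERK pathway, 4930523C07Rik and H2-Q10. Spred1 went from a median of 42.7 CPM (35.1 to 51.9) to 21.7 (13.4 to 30.9) and fell by 1.04 (adjusted p = 0.028), while in cDC2 it was at 74.3 and 79.6 CPM. 4930523C07Rik went from a median of 117 CPM (91.0 to 132) to 71.0 (42.7 to 85.7) and fell by 0.80 (adjusted p = 0.018), and it stood at 179 and 202 CPM in B cells. Spred1 lost its pass without control 2, 4, 5 or 6 or anemic mouse 1 or 3 (adjusted p = 0.057 to 0.112), and also without TMM scaling (0.053), with Y-linked expression as a covariate (0.056) and under the strict gate (0.055). 4930523C07Rik lost it without control 6 (0.054) or anemic mouse 1 (0.066), with a gate of at least 3 UMIs (0.059) and under the strict gate (0.144). H2-Q10, a class I molecule secreted by the liver, went from a median of 14.1 CPM (10.4 to 24.3) to 3.07 (2.21 to 8.94) and fell by 1.93 (SE 0.35, adjusted p = 0.024). The same gene went from 21.1 ± 5.06 to 10.3 ± 2.22 CPM in B cells, where all 6 anemic mice were below all controls, and from 21.8 to 9.79 CPM in pDC. The 10 hepatocyte markers summed to 1588 to 4264 CPM in control and 416 to 3914 CPM in anemic cDC1, with 4 of 6 anemic mice below all controls, and to 3693 to 6296 and 1015 to 4435 CPM in B cells. Their part in the fall of H2-Q10 was not tested, and that fall did not pass without control 3, 4 or 5 or anemic mouse 1 or 3 (adjusted p = 0.052 to 0.077) or under the strict gate (0.192). Its log2 fold change stayed between -2.23 and -1.76 over the alternatives. The same range was -1.38 to -1.04 for Ccl22, -1.18 to -0.95 for Spred1, -0.88 to -0.68 for 4930523C07Rik, -0.71 to -0.56 for Nfkb1 and -0.77 to -0.60 for Bcl2a1a.

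The 3 genes that rose were Plac8, Pfkl and Gm10076. Plac8 (chromosome 5, 100553725 to 100572245, minus strand) ran from 97.5 to 196 CPM with a median of 138 in control and from 265 to 902 with a median of 372 in anemic mice. Anemic mouse 2 was far above the rest, and the groups did not overlap. The rise was 1.59 on the log2 scale (SE 0.27, adjusted p = 0.016), and it did not pass without control 4 (0.053) or control 6 (0.054). Among cDC1 with an Xcr1 UMI, Plac8 was at 127 ± 37.0 and 389 ± 168 CPM, and in cDC2 at 450 and 791 CPM. The other 6 monocyte markers together summed to 274 to 375 CPM in control and 295 to 597 CPM in anemic cDC1, with 2 of 6 anemic mice above all controls. Most of that sum was Ccr2 (113 and 110 CPM) and Lyz2 (167 and 207 CPM). Ly6c2 was at 9.00 ± 7.74 and 27.3 ± 31.6 CPM and Ms4a6c at 25.2 ± 10.4 and 53.1 ± 25.4 CPM. None of these 4 passed, and F13a1 and Fcgr1 were too low to be tested. The part of these markers in the rise was not tested.

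Pfkl, the liver-type phosphofructokinase of glycolysis (chromosome 10, 77986947 to 78010083, minus strand), ran from 21.3 to 32.4 CPM with a median of 26.7 in control and from 41.6 to 89.5 with a median of 49.2 in anemic mice. All anemic mice were above all controls. Pfkl rose by 1.00 (SE 0.19, adjusted p = 0.035), a pass that was lost without any 1 of 8 mice (control 1, 2, 4, 5 or 6, or anemic mouse 1, 3 or 6, adjusted p = 0.051 to 0.103) and under the strict gate (0.192), while its log2 value ran from 0.81 to 1.07 over the mice left out. In pDC it was at 34.6 and 36.2 CPM. Gm10076 is annotated as a long non-coding RNA but 114 of its 295 90-base words occur in the ribosomal protein gene Rpl41, so it is uncertain. It went from a median of 82.0 CPM (62.1 to 107) to 166 (124 to 194), a rise of 0.89 (adjusted p = 0.0096), and from 104 to 172 CPM in B cells.

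The hepatocyte transcript Alb was absent from 434 members, 111 control and 323 anemic, and the levels of the named genes were also summed over these alone, a subset chosen after the data were seen and given as a description. Lmna was at 169 ± 49.6 and 84.9 ± 18.2 CPM there, with all 6 anemic mice below all controls. Gm10076 was at 75.2 ± 22.7 and 153 ± 33.2 CPM with all 6 anemic mice above all controls, and Plac8 at 189 ± 80.3 and 461 ± 271 CPM with 4 above. These groups stood apart as in the full set for Lmna and Gm10076, while several others overlapped. H2-Q10 was at 14.3 ± 19.0 and 2.85 ± 4.62 CPM, with 0 anemic mice below all controls. Pianp was at 136 ± 36.4 and 107 ± 30.0 CPM with 1 anemic mouse below all controls, Cyp8b1 at 53.7 ± 34.0 and 23.0 ± 9.31 CPM with 2 below, and Bcl2a1b at 487 ± 218 and 343 ± 123 CPM with 0 below. Mab21l3, which fell in the full set, was at 26.4 ± 13.1 and 26.6 ± 13.7 CPM here, with 1 anemic mouse above and 1 below all controls. It had a UMI in only 11.7% of all members, so its level in the 111 control cells rests on few cells. Among members without a Ccr7 UMI it was at 37.6 ± 5.71 and 18.1 ± 7.12 CPM. All 6 anemic mice were below all controls there, as among members with an Xcr1 UMI or under 1% globin UMIs.

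Below the threshold, Apoc3, an apolipoprotein of hepatocytes, and Mif, a cytokine that is also a target of hypoxia signaling, had the next smallest p among higher genes. Apoc3 was at 15.2 ± 2.25 and 69.2 ± 60.3 CPM (adjusted p = 0.067), but 95 of its 426 UMIs came from 1 cell of anemic mouse 5. Mif was at 97.4 ± 10.4 and 214 ± 117 CPM (adjusted p = 0.067), and 157 of its 441 90-base words occur in Gm10169. Apoc3 passed under 7 of 24 alternatives (lowest adjusted p = 8.7e-05) and Mif under 9 of 24 (0.00042), both of them with DESeq2, with no filter on low counts and with the replicate block. Fabp4, a fatty acid binding protein, was at 42.0 ± 57.2 and 70.8 ± 21.4 CPM (adjusted p = 0.67), with 80 UMIs in 1 cell of control 5. Without control 5 its log2 fold change was 1.84 (adjusted p = 0.0023), the 1 of 24 alternatives under which it passed. Bnip3, a mitochondrial autophagy receptor, was at 18.2 ± 3.18 and 30.5 ± 11.5 CPM (adjusted p = 0.25), and Sgk1, a glucocorticoid-induced kinase, at 49.3 ± 1.98 and 55.1 ± 16.8 CPM (adjusted p = 0.9).

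**Figure D3:**
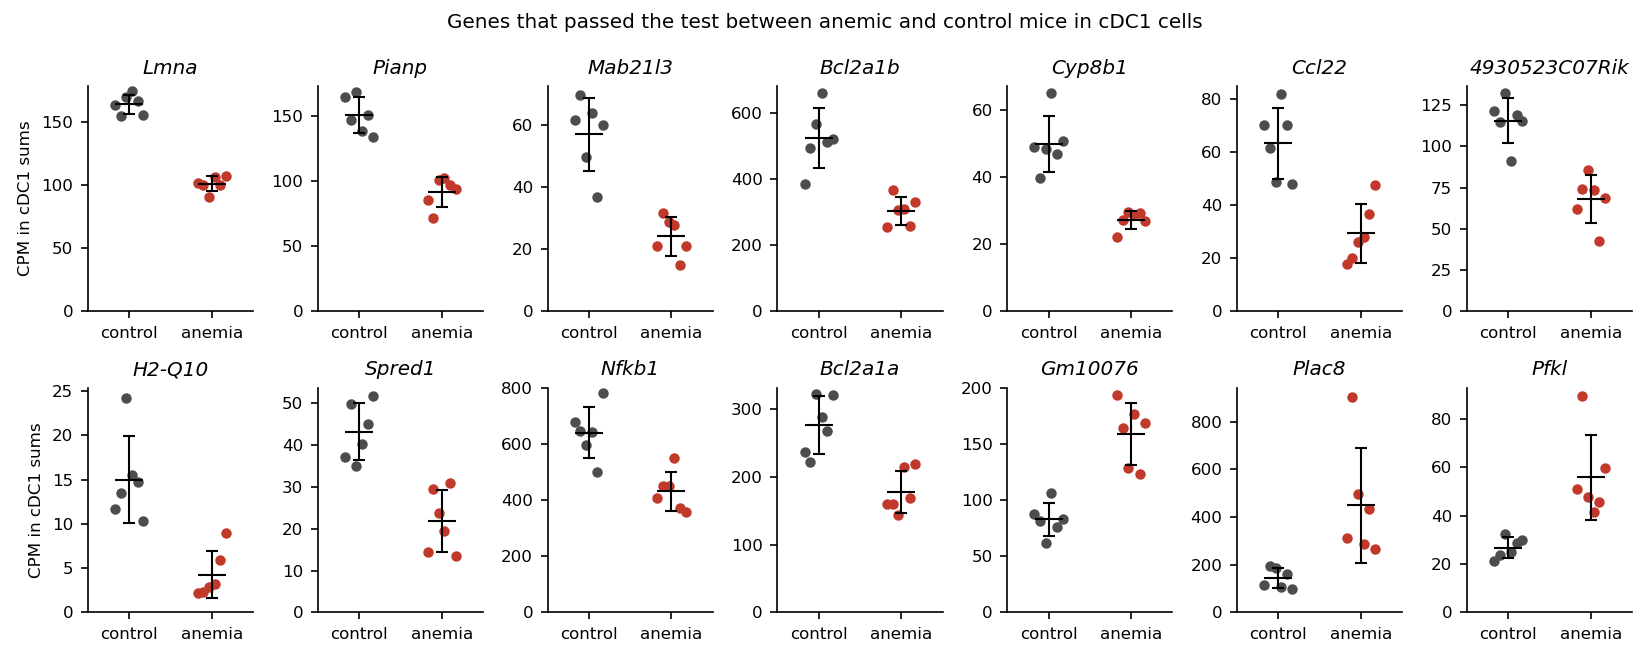
The 14 genes that passed the test between anemic and control mice in cDC1, as CPM of the summed cells of each mouse (points, 6 control in grey and 6 anemic in red), with the mean and SD in black and each axis starting at 0. The first 11 panels fell and the last 3 rose. Lmna lies between 155 and 175 CPM in control and between 90.7 and 107 CPM in anemic mice.

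Gene lists were described by counts and medians, beside the same over all genes tested, of which 4.99% were higher and 5.58% lower at an unadjusted p under 0.05 with a median log2 fold change of 0.02. Without TMM factors the balance turned over, from 447 higher and 500 lower genes to 698 higher and 384 lower, and the median was 0.07. The list medians moved up with it, to 0.50 for glycolysis and hypoxia, 0.73 for interferon response and -0.26 for maturation, and those of MHC class I and survival changed sign, to 0.01 and 0.03. Of 27 glycolysis and hypoxia genes tested, 1 passed (Pfkl), 15 were higher and 0 lower at an unadjusted p under 0.05, and the median log2 fold change was 0.45. The 3 with the highest levels, named by that rule, were the glycolytic enzymes Gapdh (1500 ± 193 and 2301 ± 963 CPM), Aldoa (391 ± 49.9 and 683 ± 398 CPM) and Ldha (567 ± 81.4 and 675 ± 180 CPM), none of which passed (adjusted p = 0.25, 0.25 and 0.66), though Aldoa did with no filter on low counts (0.028). Anemic mouse 2 was the highest of all 12 at each of the 3. Without anemic mouse 2, 12 genes of the list were higher and 0 lower at the unadjusted level, and the median was 0.32. In the sums over the list, 4 of 6 anemic mice were above all controls, with 4316 to 5433 CPM in control and 5251 to 11180 CPM in anemic mice.

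The promoters of this list are shown because 15 of its 27 tested genes were higher and 0 lower at an unadjusted p under 0.05. The list was drawn up from known glycolysis genes and targets of hypoxia-inducible factors, so the share of its promoters that hold the motif was partly set by that choice and is a description only. The letters ACGTG, 1 form of the core of the element bound by hypoxia-inducible factors, were searched on both strands. The windows held 300 bases, from 250 bases before to 50 after each start (RefSeq, GRCm38.p6). CACGTG reads the same on both strands and so counts as 2 overlapping matches. Of 26 list genes with a promoter, 19 held the letters (73.1%), against 5886 of 27025 genes in all (21.8%) and 1 of 14 maturation genes (7.14%). Per window, 21 of 38 list promoters (55.3%) and 6447 of 32851 in all (19.6%) held them. The windows of Bnip3 (chr7:138909457-138909756, minus strand) and the lactate exporter Slc16a3 (chr11:120948817-120949116, plus strand) hold 2 matches each, in capitals. Those of Pfkl (chr10:78009758-78010057, minus strand) and Ccl22 (chr8:94745434-94745733, plus strand) hold 0 matches to ACGTG and are shown for contrast. Both of these windows hold GCGTG in lower case, a form that was not searched.
Bnip3: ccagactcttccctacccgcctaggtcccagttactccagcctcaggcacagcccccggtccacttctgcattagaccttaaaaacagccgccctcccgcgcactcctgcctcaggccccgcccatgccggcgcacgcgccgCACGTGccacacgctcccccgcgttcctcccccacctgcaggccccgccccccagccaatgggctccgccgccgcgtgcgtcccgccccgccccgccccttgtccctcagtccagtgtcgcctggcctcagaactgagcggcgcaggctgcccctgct
Slc16a3: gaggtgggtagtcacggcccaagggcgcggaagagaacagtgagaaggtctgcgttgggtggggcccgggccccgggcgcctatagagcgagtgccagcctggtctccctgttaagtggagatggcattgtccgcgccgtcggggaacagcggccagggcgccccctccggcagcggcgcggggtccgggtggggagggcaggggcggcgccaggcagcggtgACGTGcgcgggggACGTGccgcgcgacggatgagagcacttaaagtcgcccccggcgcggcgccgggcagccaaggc
Pfkl: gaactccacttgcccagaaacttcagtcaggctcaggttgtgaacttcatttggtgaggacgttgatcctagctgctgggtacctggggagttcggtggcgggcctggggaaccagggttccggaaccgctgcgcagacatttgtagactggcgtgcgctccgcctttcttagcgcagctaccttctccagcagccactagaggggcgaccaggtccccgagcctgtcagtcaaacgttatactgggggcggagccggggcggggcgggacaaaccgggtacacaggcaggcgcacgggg
Ccl22: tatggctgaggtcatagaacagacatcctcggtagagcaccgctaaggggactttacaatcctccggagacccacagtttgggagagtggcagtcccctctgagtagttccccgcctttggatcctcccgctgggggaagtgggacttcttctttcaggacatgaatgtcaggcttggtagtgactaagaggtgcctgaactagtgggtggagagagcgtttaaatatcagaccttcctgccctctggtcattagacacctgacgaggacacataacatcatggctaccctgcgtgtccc
A match describes letters in a window and not a bound site. Pfkl passed the test with no ACGTG in its window, and other forms of the core were not searched. Slc16a3, chosen after its value was seen, was at 10.4 ± 3.68 and 23.7 ± 11.8 CPM (adjusted p = 0.17).

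Of 18 interferon response genes tested, 0 passed (lowest adjusted p = 0.14), 11 were higher and 0 lower at an unadjusted p under 0.05, with a median log2 fold change of 0.67. Irf7, the factor that amplifies type I interferon, ran from 88.4 to 277 CPM (median 117) in control and from 78.3 to 636 (median 133) in anemic mice. Ifitm3, an antiviral membrane protein, ran from 86.2 to 184 CPM (median 136) and from 162 to 393 (median 201). Ifitm3 passed with no filter on low counts (adjusted p = 0.017) and with the replicate block (0.016). The groups overlapped in both, and anemic mouse 2 was the highest of all mice. Without it 3 genes of the list were higher and 1 lower at an unadjusted p under 0.05, and the median was 0.42. Without control 2 the counts were 13 and 0 and the median 0.88, and with limma they were 4 and 0 and the median 0.41.

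Of 19 maturation genes tested, 1 passed (Ccl22, lower), 0 were higher and 6 lower at an unadjusted p under 0.05, and the median was -0.31. Cd83, a marker of activated dendritic cells, was at 846 ± 77.4 and 708 ± 129 CPM (adjusted p = 0.35), the co-stimulator Cd86 at 506 ± 77.9 and 468 ± 78.1 CPM (adjusted p = 0.71) and Samsn1 at 145 ± 26.1 and 130 ± 37.2 CPM (adjusted p = 0.74). The lists of chemokines and cytokines (19 tested, 1 and 6, median 0.02) and of maturation share Ccl22, Ccl17 and Il12b.

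No gene of the lists for the functions that define the cells passed. Of 23 cDC1 identity genes, 2 were higher and 5 lower at an unadjusted p under 0.05, with a median of -0.08. Cst3, the protease inhibitor cystatin C, was at 23366 ± 1960 and 21139 ± 1228 CPM (adjusted p = 0.27), and Flt3 at 179 ± 10.6 and 206 ± 47.2 CPM (adjusted p = 0.77). Of 17 MHC class I genes 0 were higher and 1 lower at that level (median -0.04), of 11 class II genes 1 and 2 (median -0.08), of 12 cross-presentation genes 0 and 2 (median -0.10) and of 11 innate sensors 1 and 1 (median 0.08). Wdfy4 was at 961 ± 82.0 and 1030 ± 136 CPM (adjusted p = 0.92). Of 21 receptor genes, 1 was higher (median 0.05), namely Kit, the stem cell factor receptor, named for that count, at 70.4 ± 9.67 and 111 ± 17.4 CPM (log2 0.59, adjusted p = 0.067).

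Of 30 cell cycle genes, 0 were higher and 1 lower (median 0.17), and of 10 iron and heme genes 0 and 1 (median -0.06), with the ferritin chains Fth1 at 3007 ± 146 and 3673 ± 1058 CPM (adjusted p = 0.56) and Ftl1 at 2667 ± 326 and 2211 ± 189 CPM (adjusted p = 0.19). Of 18 lipid genes 0 and 3 moved at that level (median -0.07), where Apoe, an apolipoprotein also made by hepatocytes and macrophages, was at 278 ± 99.2 and 130 ± 71.2 CPM (adjusted p = 0.15). The counts were 1 and 3 of 17 immediate early and heat shock genes (median -0.15), 1 and 2 of 8 metallothionein and glucocorticoid genes (median 0.22) and 0 and 1 of 9 survival genes (median -0.03). None of the genes of these lists passed.

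**Figure D4:**
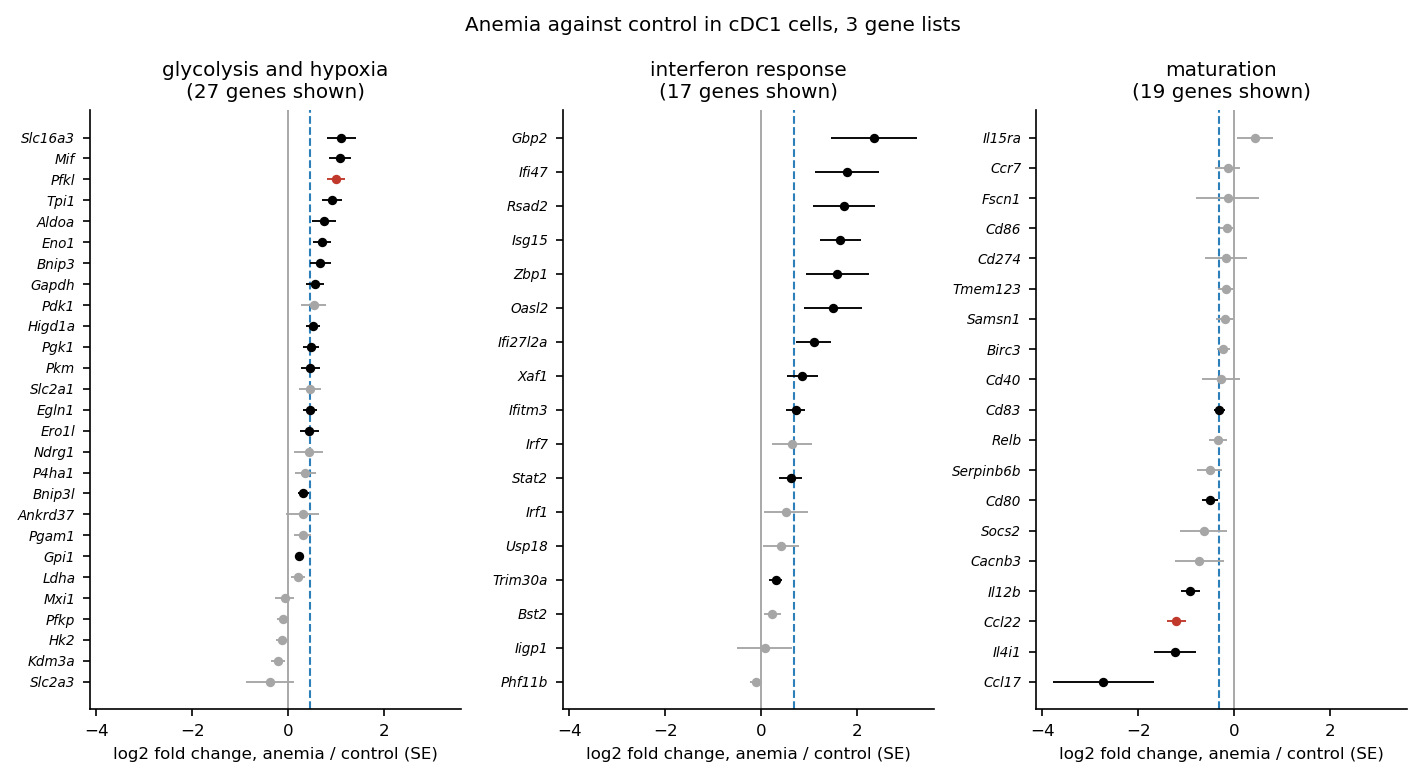
Log2 fold change (anemia over control, with SE) in cDC1 of the tested genes of the glycolysis and hypoxia, interferon response and maturation lists, with 1 interferon gene not drawn. Red marks an adjusted p under 0.05, black an unadjusted p under 0.05 and grey the rest, and the dashed line is the median of all tested genes of the list (0.45, 0.67 and -0.31). Pfkl and Ccl22 are the red points.

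Whether anemia acted differently on cDC1 and cDC2 was tested as an interaction. Of 7680 genes 0 passed in edgeR (0.0%), with 395 at an unadjusted p under 0.05 (5.14%), and DESeq2 called 0 with 252 unadjusted. For Lmna the difference of the log2 fold changes was -0.02 (SE 0.32), and for Nfkb1, at 1342 and 1368 CPM in cDC2, it was -0.68 (SE 0.17, adjusted p = 0.45). In cDC2 alone 0 of 3782 genes passed (0.0%, with 208 unadjusted, 5.5%), and in pDC 29 of 8677 passed (0.334%). The cDC2 sums came from 20 to 33 cells per mouse, against 87 to 211 for cDC1, and their lower depth limits what could be detected there.

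Transcripts of other cell types were measured in the cDC1 sums. Erythroid markers summed to 1321 to 9001 CPM in control and 3810 to 23498 CPM in anemic cDC1, with 2 of 6 anemic mice above all controls, and to 1087 to 9655 and 14228 to 26337 CPM in B cells. Kupffer cell markers summed to 55.3 to 75.9 and 54.4 to 112 CPM, endothelial markers to 79.6 to 128 and 62.6 to 123 CPM and B cell markers to 100 to 175 and 113 to 206 CPM. Neutrophil markers ran from 41.4 to 2584 CPM and from 29.8 to 3187 CPM, and 1 cell of anemic mouse 1 held 244 of the 255 UMIs of Elane and 72 of the 85 of Mpo. The neutrophil gene S100a8 was found in 196 members (6.5% of control and 17.4% of anemic cDC1) and S100a9 in 286 (11.0% and 23.7%). T and NK cell markers ran from 5.19 to 68.8 CPM and from 10.6 to 285 CPM, and 1 cell of anemic mouse 2 held 200 of the 357 UMIs of Gzma. Siglech was at 0 by the gate, and the basophil gene Prss34 and the cDC2 gene Clec4a4 were at 0 in all 12 mice. No doublet caller was run. Any 2 libraries shared 56 to 122 barcodes, and 0 barcodes were cDC1 in more than 1 library.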

How the data were processed

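Single-cell RNA sequencing covered the liver of each of 6 control and 6 anemic pups, 1 library per mouse. The authors deposited UMI counts per gene and barcode, not normalized, and per the file headers these counts came from Cell Ranger 7.0.0. The submitters' processing notes name Cell Ranger, Seurat and the build mm10. Libraries held 46252146 to 74545930 UMIs and the cDC1 of a mouse 670817 to 1388673, so a gene at 0 UMIs in the cDC1 of a mouse was not detectable at the latter depth rather than absent.

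The members and gene lists were chosen with earlier results of these data known. UMIs of the members were summed per mouse and tested under R 4.3.3 by the quasi-likelihood method of edgeR 4.0.16 with TMM scaling. Genes averaging 5 or more UMIs a mouse entered, without mitochondrial, ribosomal protein and gate genes, and with Benjamini-Hochberg adjustment over all genes tested. The comparison with cDC2 added the mouse as a block. Alternatives used DESeq2 1.42.0 and limma 3.58.1. Shares per mouse were compared by the exact two-sided Mann-Whitney test over 924 splits with scipy 1.17.1. Cells were read with numpy 2.4.6 and pandas 2.3.3 under Python 3.11.15, and plots drawn with matplotlib 3.10.9. The tests were checked on simulated counts. Named genes were up to 12 passing genes a direction, the passing members and the 3 highest-level members of each list, the markers of the dendritic types, Bnip3, Fabp4 and Sgk1, and the 5 genes of smallest p where fewer passed. The 6 largest differences a direction between cDC1 and cDC2 were also named. Groups came from the sample records. Gene positions are those of GENCODE M21 on GRCm38, and shared 90-base words were counted over the last 400 bases of transcripts. The alternatives were the gate, the UMI and mitochondrial limits, thinning, denominators, scaling, filters, tools, replicate number, sex and leaving out each mouse. The authors' cell names were not used here, and the values of 1 interferon gene that the rule names are not reported here.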

Additional observations from a re-analysis of the deposited data

Results flagged for a closer look

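Within groups of 6 mice, 1 value stood apart by Dixon's test (the gap to the nearest value over the whole range, at its 95% critical value) in 9 of 74 groups, where chance gives about 1 in 20. Anemic mouse 2 was the highest of the anemic mice at Plac8 (902 CPM, the others 265 to 496), Mif (446, the others 136 to 218) and Ldha (1028, the others 531 to 682). Control 2 was the highest control at Irf7 (277 CPM, the others 88.4 to 157). Apoc3 was at 185 CPM in anemic mouse 5 (the others 26.6 to 74.5) and Fabp4 at 158 CPM in control 5 (the others 14.5 to 25.3), and in both of these a single cell held a large part of the UMIs (95 of Apoc3 and 80 of Fabp4). H2-Q10 was at 24.3 CPM in control 3 (the others 10.4 to 15.5), Bnip3 at 24.5 CPM in control 1 (the others 15.5 to 17.7) and Cyp8b1 at 22.1 CPM in anemic mouse 1, the lowest (the others 26.8 to 29.5).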

How the results depend on the processing

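The cDC1 share of kept cells was lower in anemia under every alternative, and passed only under the strict gate (-0.261 percentage points). With each mouse left out its difference, anemia minus control, ran from -0.247 to -0.144 percentage points. The cDC1 share of dendritic cells differed by -1.27 percentage points in anemia, and this difference turned to 0.971 with a gate of 1 UMI. Over mice left out the difference ran from -3.73 to 0.268 (0.268 without anemic mouse 6). The difference in the cDC2 share of kept cells ran from -0.0011 to 0.021 percentage points over mice left out, below 0 without anemic mouse 6. The count of genes that passed between anemic and control cDC1 was 14, and 63 with DESeq2, 121 with no filter on low counts, 60 with the replicate block and 5 with the strict gate. Leaving out each mouse gave 8 to 39, with 8 without control 4 or 6, 9 without anemic mouse 1 or 3 and 39 without anemic mouse 4. The strict gate, which had fewer cells, kept Lmna, Plac8, Bcl2a1b and Gm10076. The cause of the other shifts was not tested. The interaction gave 1 gene (Abtb2) under the strict gate and 0 to 2 over mice left out, the 2 being Col3a1 and Col1a1 without anemic mouse 6. Between cDC1 and cDC2, leaving out TMM factors moved the split to 968 higher and 1429 lower. The 14 genes that passed kept their direction under each alternative in which they were tested. No pairing of same-numbered mice was stated, and the litter of each mouse was not known, so an effect of litter was not tested. The deviations of same-numbered mice had correlations of -0.042 to 0.180, and only number 4 was closest to its own number. The replicate block kept all 14 genes, gave the cDC1 share p = 0.0938 (exact sign-flip test over 6 pairs) and median UMIs p = 0.0312, the smallest that 6 pairs can give (adjusted p = 0.188).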
